A study of Sus scrofa with 45 samples.

Results

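The genes described here encode the major histocompatibility complex (MHC) class I molecules of the pig, called swine leukocyte antigens (SLA), and proteins that make and load them. Members were chosen by name: every array probe whose annotation names SLA-1, SLA-2, SLA-3, SLA-6, SLA-7, SLA-8, B2M, TAP1 or TAP2, by symbol or by full name. Of these 9 genes, 7 had a probe, with 27 probes in all, among 43603 probes and 5381 named genes of the array. No probe named SLA-8 or TAP2. SLA-1, SLA-2 and SLA-3 are classical class I heavy chains, carried by nearly every nucleated cell, and SLA-6, SLA-7 and SLA-8 are nonclassical chains. B2M is the light chain that pairs with each heavy chain. TAP1 and TAP2 form the transporter that carries peptides from the cytosol into the endoplasmic reticulum, where the chains bind them before they travel to the cell surface and are read by CD8 T cells and natural killer (NK) cells.

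The study followed male Clawn miniature pigs on a control diet, on feed rich in fat and cholesterol (HFCD), or on feed rich in fat, cholesterol and sucrose (HFCSD). RNA of whole blood (WB, drawn into PAXgene tubes) was hybridized to 1-colour porcine arrays after 10, 19 and 27 weeks of feeding, and RNA of white blood cells (WBC, caught on LeukoLOCK filters) after 27 weeks. The 45 arrays gave 4 arrays per diet in WB at 10 weeks, 4 control, 4 HFCD and 3 HFCSD arrays at 19 weeks, 4, 3 and 3 at 27 weeks, and 4 per diet in WBC. The labels number the replicates of a group and do not say that they are separate pigs. The paper describes blood taken from each pig and compares individuals within a diet group. It sampled the same pigs repeatedly, so groups of a diet share pigs across weeks and sample types. Comparisons over time and of WBC with WB treated these arrays as independent. Every p-value measures only the spread between these samples. Each array held 43803 spots of probes, of which 15494 to 23344 (median 19242) were well above background. The median share per group, in the order control, HFCD and HFCSD, was 42.5%, 47.5% and 44.8% in WB at 10 weeks, 43%, 39.9% and 42% at 19 weeks, 48.0%, 46.0% and 39.6% at 27 weeks, and 47.8%, 45% and 47.9% in WBC.

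SLA-1 had 10 probes, SLA-2 had 2, SLA-3 had 4, SLA-6 had 1, SLA-7 had 2, B2M had 1 and TAP1 had 3, and 4 probes were annotated as class I without naming a gene. A probe is identified here by its gene and by the base of the annotated record at which it starts. Of the 27 probes, 20 were well above background on all 45 arrays, 25 could be tested in at least 1 comparison and 20 were called in at least 1. The class I probe at base 330 (A_72_P017526) was well above background on 0 arrays and the SLA-7 probe at base 1146 (A_72_P223217) on 6, and neither could be tested. The heavy chains are so alike that a probe may bind RNA of several of them. The SLA-3 probes at bases 1761 (A_72_P361238) and 1771 (A_72_P407238) shared a run of 50 bases, and each shared 32 bases with the SLA-2 probe at base 1525 (A_72_P195482). The SLA-1 probe at base 1448 (A_72_P035616) shared 41 bases with the unnamed class I probe at base 1547 (A_72_P277969), and the accessions listed for the SLA-1 probe at base 1202 (A_72_P267132) and for the SLA-3 probe at base 816 (A_72_P270324) are of both SLA-1 and SLA-3. The symbol given for a heavy chain below is therefore the annotation's, and which chain's RNA was bound was not tested. The only B2M probe was named by its description alone, as were several heavy-chain probes and TAP1 at base 883. Their gene was not checked.

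All levels are log2 intensities, listed in the order of the replicates. The SLA-1 probe at base 343 (A_72_P170061) read 13.01, 12.17, 12.48 and 12.66 in control WB at 10 weeks, 12.89, 12.22, 12.78 and 13.18 in HFCD, and 12.24, 12.63, 12.61 and 12.82 in HFCSD. By 19 weeks it read 9.96, 11.35, 10.89 and 11.05 in control, 9.43, 11.96, 11.72 and 10.96 in HFCD, and 11.32, 12.17 and 9.58 in HFCSD. After 27 weeks the WB values were 9.95, 10.71, 10.15 and 7.87 in control, 11.04, 10.21 and 9.56 in HFCD, and 9.75, 11.16 and 10.70 in HFCSD. Every WB array of 27 weeks thus lay below every WB array of 10 weeks, control replicate 4 was lowest, and the diets overlapped at each period. In WBC the same probe read 12.55, 12.51, 12.51 and 12.65 in control, 12.64, 11.77, 12.92 and 12.73 in HFCD, and 11.66, 12.93, 12.29 and 12.04 in HFCSD, all above the WB arrays of the same week and overlapping those of 10 weeks.

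The SLA-7 probe at base 649 (A_72_P237472) read 14.65, 13.95, 14.18 and 14.51 in control WB at 10 weeks, 14.90, 14, 14.74 and 15.25 in HFCD, and 14.16, 14.47, 14.35 and 14.73 in HFCSD. Its 19-week values were 12.58, 13.26, 13.05 and 13.17 in control, 11.97, 13.48, 13.60 and 13.18 in HFCD, and 13.45, 14.25 and 11.89 in HFCSD. These lay below the 10-week arrays apart from HFCSD replicate 2. At 27 weeks WB read 12.38, 13.10, 12.50 and 11.45 in control, 13.35, 12.62 and 12.12 in HFCD, and 12.48, 13.05 and 12.59 in HFCSD. WBC read 14.37, 14.23, 14.18 and 14.24 in control, 14.41, 13.80, 14.61 and 14.43 in HFCD, and 13.63, 14.58, 14.13 and 14.02 in HFCSD. As at the SLA-1 probe, no WB array of 27 weeks reached a WBC array or a WB array of 10 weeks, and the diets overlapped.

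The SLA-3 probe at base 816 read 14.66, 13.78, 14.21 and 14.45 in control WB at 10 weeks, 14.81, 13.82 and 14.61 on the 3 usable HFCD arrays, and 13.97, 14.31, 14.31 and 14.65 in HFCSD. At 19 weeks the values were 12.20, 13.23, 13.17 and 13.25 in control, 12, 13.59, 13.43 and 12.94 in HFCD, and 13.41, 14.40 and 11.67 in HFCSD. At 27 weeks they were 12.52, 13.35, 12.66 and 10.55 in control, 13.51, 12.39 and 12.01 in HFCD, and 12.02, 12.92 and 12.46 in HFCSD, without overlap with 10 weeks. WBC read 14.57, 14.51, 14.51 and 14.66 in control, 14.66, 14.09, 14.88 and 14.72 in HFCD, and 13.72, 14.78, 14.28 and 14.08 in HFCSD, each above every WB array of 27 weeks. The other SLA-3 probes (bases 1670, A_72_P114481, 1761 and 1771) and both SLA-2 probes (bases 971, A_72_P155696, and 1525) did not separate the periods in this way: SLA-2 at base 1525 had group means of 13.06 to 13.73 in the 12 groups, with SDs up to 1.11.

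The brightest class I probes were SLA-1 at base 1334 (A_72_P023806), with 16.34 to 17.57 over the 45 arrays, and SLA-1 at base 1362 (A_72_P119087), with 16.04 to 17.57. On each array they lay in places 1 to 39 and 1 to 59 of 43577 probes ordered by signal, and 0 of their spots were marked as saturated. SLA-1 at base 1448 read 16.04, 15.80, 15.88 and 15.64 in control WB at 27 weeks, 15.65, 16.08 and 15.72 in HFCD, and 16.03, 15.99 and 15.93 in HFCSD. The WBC values were 15.09, 14.63, 14.34 and 14.71, then 14.10, 14.93, 15.06 and 14.80, then 14.23, 15.01, 14.78 and 14.62, below every WB array of that week. SLA-6 (base 3657, A_72_P260597) was not well above background on any WB array, where it read 1.36 to 2.86. In WBC it read 4.44, 3.93, 4.61 and 3.14 in control, 4.42, 4.43, 3.52 and 3.46 in HFCD, and 3.77, 4.19, 4.21 and 3.79 in HFCSD, and was well above background on 3, 2 and 4 of these arrays.

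B2M (base 1131, A_72_P379693) read 9.42, 9.59, 9.11 and 9.67 in control WB at 10 weeks, 9.72, 9.71, 9.98 and 9.83 in HFCD, and 9.63, 10.02, 9.41 and 9.70 in HFCSD. At 19 weeks it read 10.36 to 11.01 on the 4 control arrays, 9.08, 10.59, 10.13 and 9.74 in HFCD, and 10.55, 10.70 and 9.21 in HFCSD. The control arrays of 19 weeks all lay above those of 10 weeks, while HFCD and HFCSD overlapped between these periods. WB at 27 weeks read 10.68, 10.98, 9.95 and 8.85 in control, 10.54, 10.40 and 10.27 in HFCD, and 9.78, 10.82 and 9.94 in HFCSD. WBC read 9.52, 8.93, 9.73 and 10.14, then 9.01, 9.10, 10.00 and 10.63, then 10.61, 8.82, 9.96 and 10.46, overlapping WB in each diet.

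TAP1 at base 1792 (A_72_P223837) read 9.67, 8.69, 8.60 and 8.98 in control WB at 10 weeks, 9.54, 8.99, 9.90 and 10.19 in HFCD, and 8.36, 9.41, 9.14 and 9.67 in HFCSD. At 19 weeks the values were 5.10, 7.81, 7.46 and 7.06 in control, 6.29, 8.54, 8.86 and 7.99 in HFCD, and 7.35, 9.21 and 5.72 in HFCSD. At 27 weeks they were 5.70, 7.21, 6.81 and 1.62 in control, 7.95, 7.56 and 6.97 in HFCD, and 5.59, 7.40 and 7.68 in HFCSD. Control replicate 4 of 27 weeks, at 1.62, was the only array on which this probe was not well above background, and the 27-week arrays lay below those of 10 weeks in each diet. WBC read 8.69, 8.86, 8.99 and 8.76 in control, 9.22, 5.56, 10.13 and 9.72 in HFCD, and 7.49, 9.97, 9.03 and 9.40 in HFCSD, so that HFCD and HFCSD overlapped WB through 1 low WBC array each.

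TAP1 at base 477 (A_72_P172206) was dimmer and well above background on 33 arrays. It read 5.85, 5.34, 5.56 and 5.42 in control WB at 10 weeks, 6.50, 5.60, 6.43 and 6.89 in HFCD, and 5.65, 5.99, 5.82 and 6.04 in HFCSD. At 19 weeks it read 1.96, 3.79, 4.29 and 4.17 in control, 3.83, 4.33, 5.44 and 3.99 in HFCD, and 4.08, 5.5 and 2.66 in HFCSD. At 27 weeks WB read 3.50, 4.46, 3.89 and 1.41 in control, 4.42, 3.71 and 2.93 in HFCD, and 1.51, 3.64 and 2.99 in HFCSD, of which 3 of 4, 1 of 3 and 0 of 3 were well above background. No WB array of 27 weeks reached the 10-week arrays. WBC read 7.14, 6.72, 6.60 and 6.29, then 6.83, 6.87, 7.14 and 6.82, then 5.15, 7.11, 6.31 and 6.46, above every WB array of 27 weeks. TAP1 at base 883 (A_72_P148766) was well above background on 35 arrays and had means of 4.47, 4.55 and 3.56 in WB at 27 weeks against 6.31, 6.08 and 5.77 in WBC (SD 0.27 to 0.94).

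**Figure D1:**
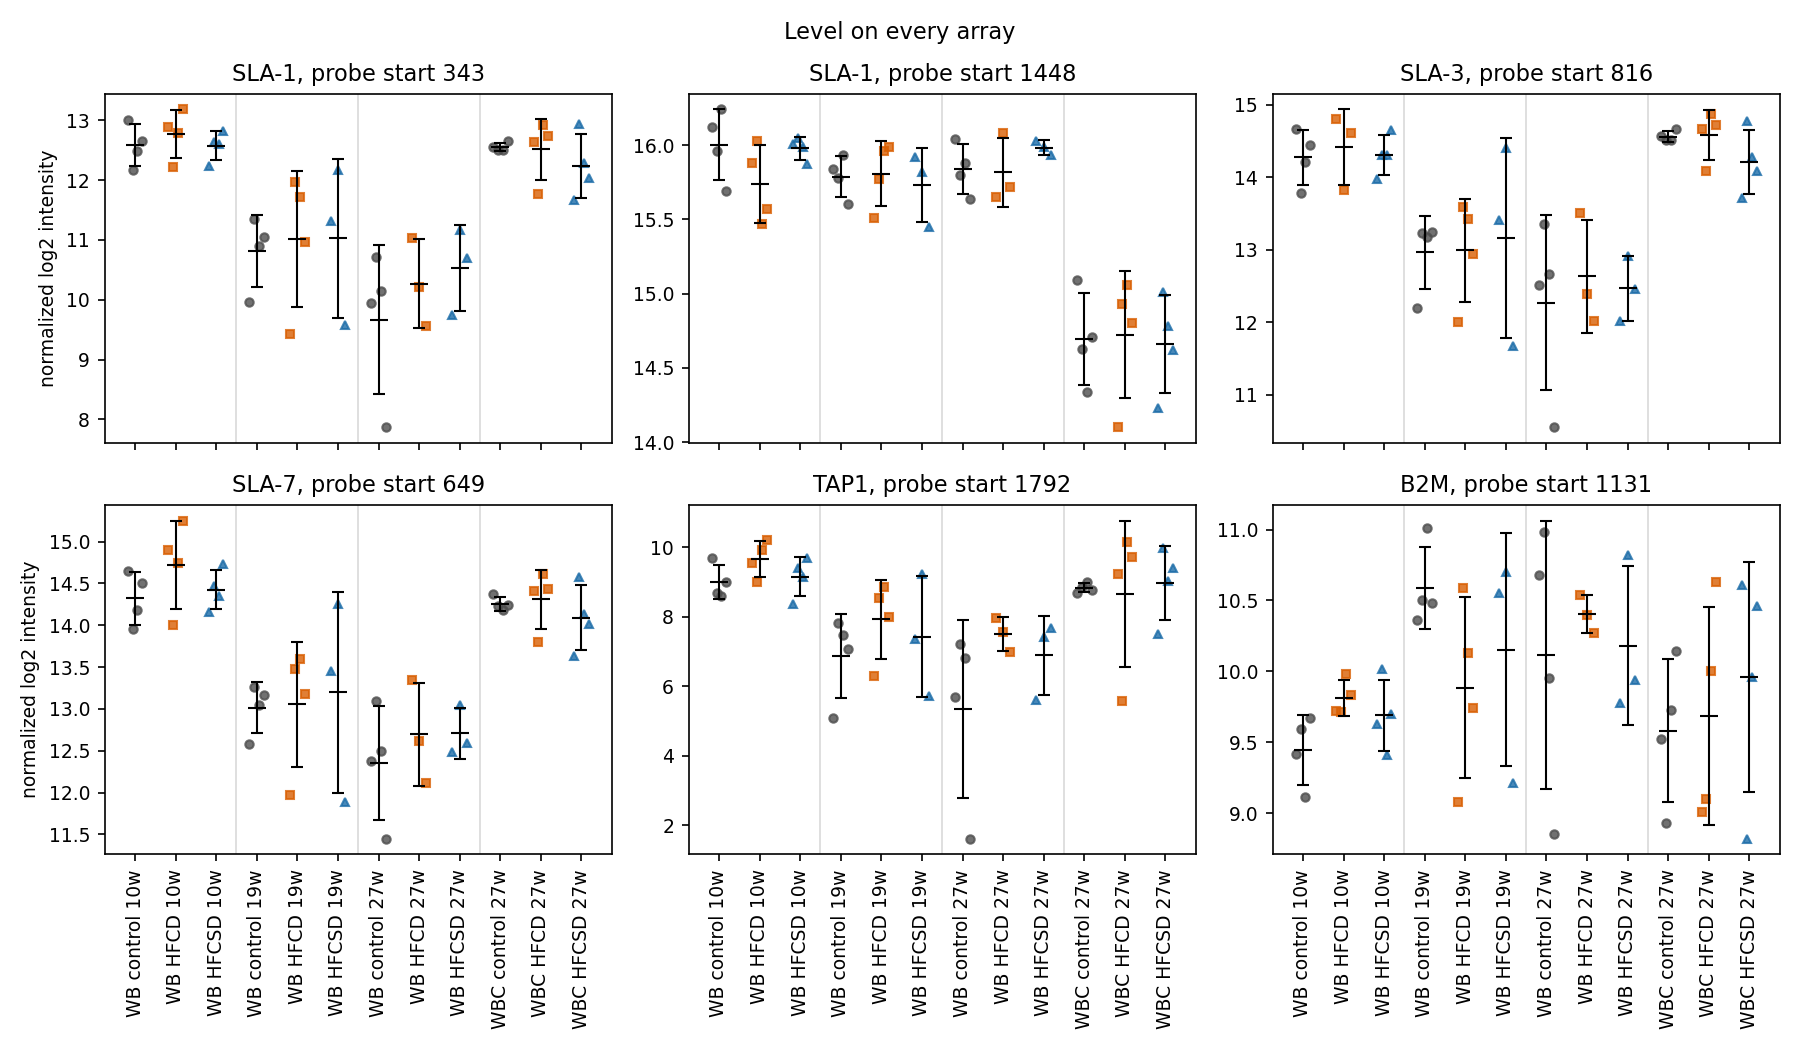
Log2 intensity (vertical axis) of 6 member probes, named above each panel with the base at which they start, in the 12 groups of sample type, weeks of feeding and diet (horizontal axis). Each point is 1 array and black marks give the mean ± SD: SLA-1 at base 343, SLA-3, SLA-7 and TAP1 were low in WB at 27 weeks and high in WB at 10 weeks and in WBC, whereas SLA-1 at base 1448 was low in WBC and B2M showed neither pattern.

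White blood cells were compared with whole blood of the same week, diet by diet, which asks how far a leukocyte preparation and whole blood give the same picture. In control, 12 of 24 members tested were higher in WBC and 4 lower (limma, adjusted p under 0.05), while 24.5% of all 19020 probes tested were higher and 20.8% lower. In HFCD the counts were 11 higher and 1 lower of 24, beside 25.7% and 21.9% of all probes, and in HFCSD 14 higher and 1 lower of 25, beside 37.3% and 21.6%. The methods' t-test with the same adjustment gave 12, 13 and 15 members in either direction. The median change of the members was 0.58, 0.63 and 1.14 log2 units, that of all probes 0.17, 0.19 and 0.42. Scaling to the 75th percentile raised the median of all probes to 0.31, 0.38 and 0.51 and gave members 0.54, 0.55 and 0.51, with 12 members higher and 5 lower in control, 11 and 5 in HFCD, and 10 and 5 in HFCSD. Of the members called higher, 3 in control, 1 in HFCD and 3 in HFCSD, all TAP1 or SLA-6, entered the test through their WBC arrays alone and were thus chosen for being brighter there. Leaving out 1 array at a time gave 13 to 16 called members in control, 10 to 12 in HFCD and 10 to 15 in HFCSD. Blood holds many cell types, so for these and all changes below a different share of a cell type and a different amount of RNA per cell cannot be told apart. Probes of the same record changed unequally, as given below, so each change is that of its probe and not of a whole transcript. Why they differed was not tested.

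Among the classical chains, SLA-1 at base 343 was 2.89 log2 units higher in WBC in control (SE 0.48, 7.39-fold, adjusted p 8.43e-05, higher in 4 of 4 WBC arrays than in any WB array). It was 2.25 higher in HFCD (SE 0.52, adjusted p 0.00168) and 1.69 higher in HFCSD (SE 0.52, adjusted p 0.00904), each in 4 of 4. SLA-1 at base 297 (A_72_P178486) gave 2.79, 2.12 and 1.61 in the order control, HFCD and HFCSD, base 602 (A_72_P299534) gave 2.47, 1.85 and 1.62, and base 1057 (A_72_P262732) gave 2.20, 1.78 and 1.88. The probes at bases 1142 (A_72_P322648) and 1202 gave 1.48, 1.01 and 1.23, and 1.58, 1.37 and 1.59. Adjusted p-values of these 15 changes ran from 0.000101 to 0.0131, with 4 of 4 WBC arrays above all WB arrays. SLA-3 at base 816 was higher by 2.29 (SE 0.44, adjusted p 0.000311), 1.95 (SE 0.47, adjusted p 0.00243) and 1.75 (SE 0.47, adjusted p 0.00398), again in 4 of 4. Without WB HFCSD replicate 1 the HFCSD calls at bases 297, 343 and 602 were lost, with changes down to 1.12, 1.30 and 1.20, and without WB HFCD replicate 2 the HFCD call at base 1142 was lost at 0.89.

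In the opposite direction, SLA-1 at base 1448 was lower in WBC by −1.15 (SE 0.22, adjusted p 0.000321), −1.09 (SE 0.24, adjusted p 0.00107) and −1.32 (SE 0.24, adjusted p 0.00013), in 4 of 4 WBC arrays of each diet. In control 3 more probes were called lower: SLA-1 at base 1395 (A_72_P322673, −0.46, adjusted p 0.0419, 3 of 4), SLA-3 at base 1761 (−0.89, adjusted p 0.0296, 4 of 4) and class I at base 1211 (A_72_P227432, −0.67, adjusted p 0.0409, 3 of 4). Base 1395 stayed called in 2 of 8 omissions of an array, and was lost without WB control replicates 1, 2 or 3 or WBC control replicates 2, 3 or 4 (−0.39 to −0.58 over all omissions). Base 1761 was lost without WB control replicates 3 or 4 or WBC control replicates 1, 2 or 3 (−0.76 to −1.04), and base 1211 without WB control replicates 1 or 3 or the same WBC arrays (−0.46 to −0.84). In HFCSD alone, SLA-1 at bases 1334 and 1362 was called higher at 0.59 (adjusted p 0.0221) and 0.68 (adjusted p 0.0285), in 4 of 4 WBC arrays, but turned to −1.25 and −1.17 when arrays were scaled to their 75th percentile. Under that scaling control lost the lower calls at bases 1761 and 1211 and gained those at bases 1334 (−0.72), 1362 (−0.67) and 1547 (−1.02), and lower calls beyond base 1448 were not limited to control: bases 1334, 1362, 1395 and 1547 gave −0.80, −0.61, −0.88 and −1.0 in HFCD, and bases 1395 and 1547 gave −1.72 and −1.65 in HFCSD. Of 13 other settings, the control calls at bases 1395, 1761 and 1211 stayed in 7, 11 and 6. The call at base 1334 was lost without WB HFCSD replicate 1 or WBC HFCSD replicate 4 (lowest change 0.43), that at base 1362 without WB HFCSD replicates 1 or 2 or WBC HFCSD replicates 2 or 3 (0.65 to 0.74). Class I at base 1216 (A_72_P180906) was higher by 0.93, 0.90 and 1.14 (adjusted p 0.00681, 0.0133 and 0.00207), the HFCD call being lost at 0.71 without WB HFCD replicate 2. SLA-2 was called in no diet, with −0.56, −0.48 and 0.02 at base 1525 (adjusted p 0.233, 0.336 and 0.962).

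Among the nonclassical chains, SLA-7 at base 649 was higher in WBC by 1.90 (SE 0.31, adjusted p 6.85e-05), 1.62 (SE 0.33, adjusted p 0.000694) and 1.38 (SE 0.33, adjusted p 0.00176), in 4 of 4 WBC arrays of each diet. The dim SLA-7 probe at base 1146, well above background on 6 of 44 usable arrays, did not pass the presence filter, and its direction cannot be read. It was called lower in WBC in control and HFCSD with the weaker flag for presence and without a filter. Under the same settings SLA-6 was called higher in control and HFCD. These calls rest on dim probes and are no test of a change. SLA-6 passed the presence filter only in HFCSD, through its WBC arrays, which lay above WB in 4 of 4, so it was chosen for being brighter in WBC. SLA-6 was not well above background in WB, nor on all WBC arrays of control and HFCD, where the presence filter left it out. No bound on its fold is therefore given in these 2 diets, and in HFCSD none above 1-fold could be set. The only B2M probe, named by its description, did not pass the test: it changed by −0.53, −0.72 and −0.22 (SE 0.46 to 0.50, adjusted p 0.364, 0.247 and 0.723), with overlapping groups.

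TAP1 at base 477 was at least 6.19-fold higher in WBC in control, in 4 of 4 WBC arrays, with 3 of 4 WB arrays well above background. In HFCD and HFCSD, with 1 of 3 and 0 of 3 WB arrays well above background, it was at least 8.06-fold and 3.91-fold higher. TAP1 at base 883 was at least 3.30-fold higher in control, with 3 of 4 WB arrays well above background, and at least 2.78-fold higher in HFCSD. In HFCD it gave 1.53 (adjusted p 0.00288, all arrays well above background). At base 1792 TAP1 was called in control alone, in 4 of 4 WBC arrays. There it was at least 6.97-fold higher, with 3 of 4 WB arrays well above background. It gave 1.17 (adjusted p 0.39) in HFCD and 2.08 (adjusted p 0.107) in HFCSD. The probes given as a bound entered the test through their WBC arrays alone, so their calls are no test of a change. Without WB control replicate 4 the control change at base 1792 was 2.26 and still called. Whether the change differed between diets was tested for each member as a difference of differences, given with the diets. Sample type, RNA kit and scan day cannot be told apart, and with each array's share of bright spots as a covariate 4 members rather than 15 were called in HFCSD.

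On these arrays the change between sample types was not the same at all probes of the SLA-1 record. The record at which 7 probes were designed has them at bases 343, 602, 1057, 1142, 1202, 1362 and 1448. In control, WBC minus WB was 2.89, 2.47, 2.20, 1.48, 1.58, 0.19 and −1.15 in that order. In HFCD it was 2.25, 1.85, 1.78, 1.01, 1.37, 0.35 and −1.09, and in HFCSD 1.69, 1.62, 1.88, 1.23, 1.59, 0.68 and −1.32. Of the 6 steps from probe to probe, 5, 5 and 4 went down. The value at base 1362 changed sign with scaling: at the 75th percentile it was −0.67, −0.61 and −1.17.

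This pattern was chosen after the values were seen and is described on the same arrays, as the difference between bases 343 and 1362 within each array, which does not depend on scaling an array by a constant. In control the differences were −7.62, −6.41, −7.31 and −8.17 in WB at 27 weeks and −4.91, −4.82, −4.61 and −4.40 in WBC, without overlap. WB at 10 weeks gave −3.93, −4.44, −4.18 and −3.98. The WBC and WB groups differed by 2.69 in control, 1.90 in HFCD and 1.01 in HFCSD, with 4, 4 and 3 of 4 WBC arrays outside the range of WB. Two-sided exact permutation gave p 0.0286, 0.0571 and 0.114 (adjusted over 9 comparisons 0.0643, 0.0643 and 0.114). The first 2 are the smallest that these group sizes allow, and with such sizes no adjusted p could fall under 0.05, so these p-values are no test of the pattern. At the 75th percentile the differences were 3.85, 3.23 and 3.15. With quantile normalization, that of HFCSD fell from 1.01 to 0.64 without WB HFCSD replicate 1. It fell from 1.01 to 0.62 with each array's share of bright spots as a covariate.

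**Figure D2:**
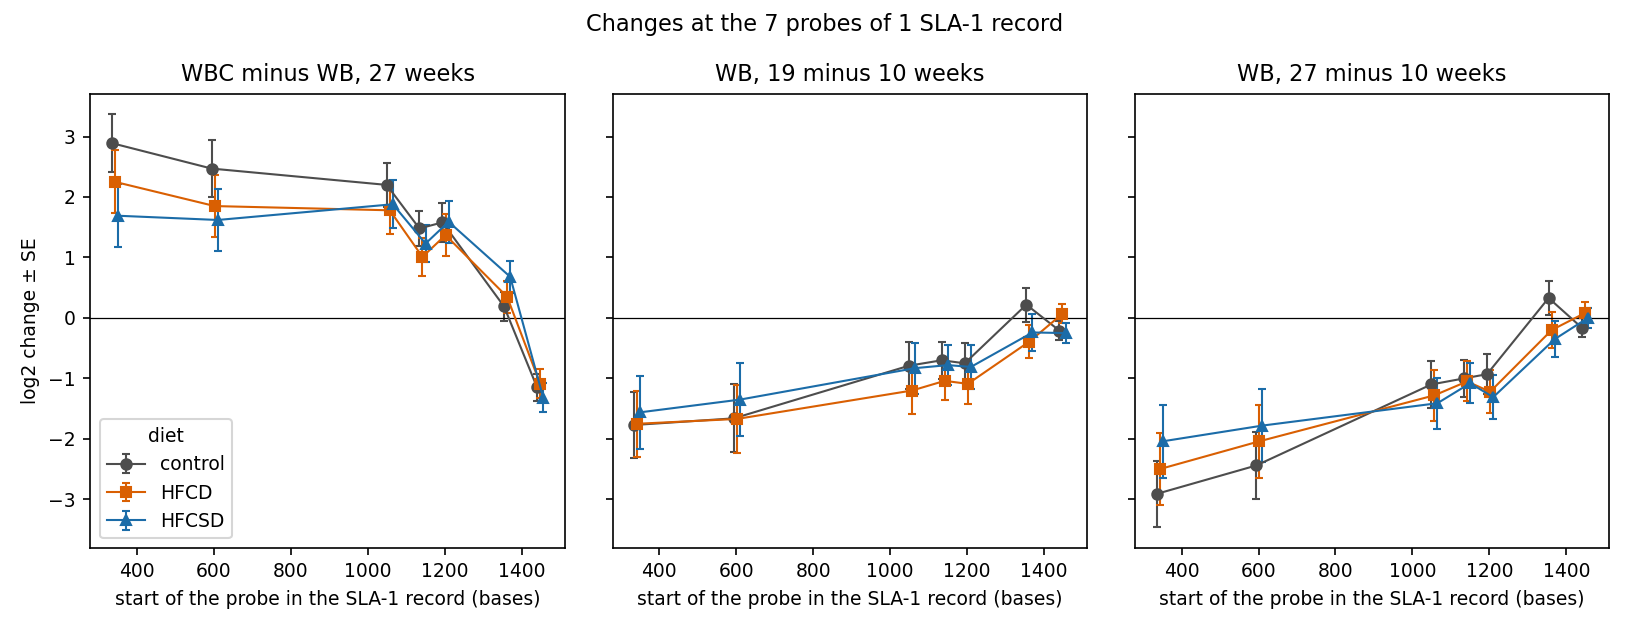
Log2 change ± SE (vertical axis) at 7 probes of the SLA-1 record, by the base at which each probe starts (horizontal axis), for WBC minus WB at 27 weeks and for 19 minus 10 and 27 minus 10 weeks in WB, with 1 line per diet. WBC minus WB ran from over 1.5 at the first probe to below 0 at the last and the changes over time were most negative at the first probe, but the sign at base 1362 turned with the scaling of the arrays in 8 of these 9 comparisons.

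Probes that share sequence were set side by side. SLA-1 at bases 297 and 343 comes from separate records, the end of the first probe repeating the start of the other, and gave 2.79 and 2.89 in control. Their sequences are shown with the shared run of 13 bases in capitals.
A_72_P178486: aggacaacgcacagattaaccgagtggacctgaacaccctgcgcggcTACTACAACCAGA
A_72_P170061: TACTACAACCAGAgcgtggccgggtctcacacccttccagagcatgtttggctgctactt
Farther along, the probes at bases 1362 and 1334 share a run of 29 bases, in capitals in the 30-base windows below, and changed by 0.19 and 0.23 in control, 0.35 and 0.11 in HFCD and 0.68 and 0.59 in HFCSD, all of which turned negative at the 75th percentile.
A_72_P119087: CTTAACTTGACTGCCCTGAGTAATGACTTc
A_72_P023806: CTTAACTTGACTGCCCTGAGTAATGACTTt
SLA-1 at base 1448 and class I at base 1547, with a run of 41 bases, gave −1.15 and −0.30 in control, −1.09 and −0.27 in HFCD and −1.32 and −0.09 in HFCSD, and at the 75th percentile −1.26 and −1.02, −1.16 and −1.0, and −2.05 and −1.65. SLA-3 at bases 1761 and 1771, with a run of 50 bases, gave −0.89 and −0.72, −0.60 and −0.71, and −0.44 and −0.37. SLA-3 showed a contrast along its record, 2.29 at base 816 and −0.28 at base 1670 in control, 1.95 and −0.41 in HFCD, 1.75 and 0.29 in HFCSD. TAP1 at bases 477 and 1792 was at least 6.19-fold and 6.97-fold higher in control. In HFCD base 477 was at least 8.06-fold higher and base 1792 gave 1.17 log2 units. In HFCSD base 477 was at least 3.91-fold higher and base 1792 gave 2.08 log2 units. Among other records whose first and last probes lie at least 300 bases apart, the first probe changed more upward than the last in 71.0% of 692 records in control, 66.0% of 692 in HFCD and 58.1% of 726 in HFCSD, with median differences of 0.53, 0.38 and 0.22.

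Feeding periods were compared within WB and diet, against 10 weeks, which asks how the transcripts moved while feeding went on. Feeding period and scan day cannot be told apart here, and the pigs also aged. In control at 19 weeks, 1 member of 24 tested was higher and 4 lower (limma), beside 4.48% and 7.46% of all 16911 probes. B2M was higher by 1.14 (SE 0.36, adjusted p 0.0364, 4 of 4 arrays above all of 10 weeks). Lower in 4 of 4 were SLA-1 at base 343 (−1.77, adjusted p 0.0342), SLA-1 at base 297 (−1.81, adjusted p 0.0441), SLA-7 at base 649 (−1.31, adjusted p 0.0318) and TAP1 at base 477 (at least 2.67-fold, with 2 of 4 arrays of 19 weeks well above background). The count rested on single arrays: it was 0 without control replicate 1, 3 or 4 of 10 weeks, 3 without replicate 2 of 10 weeks, and 1, 3, 1 and 2 without replicates 1 to 4 of 19 weeks. B2M stayed called only without replicate 1 of 19 weeks (1.00 to 1.21 over the omissions), base 297 only without replicate 4 of 19 weeks (−1.39 to −2.03), bases 343 (−1.48 to −1.95) and 649 (−1.16 to −1.43) only without replicate 2 of either period, and TAP1 without that or replicates 3 or 4 of 19 weeks. At an unadjusted p under 0.05, 12 members passed, beside 25.3% of all probes.

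In control at 27 weeks, 0 members were higher and 11 of 23 lower, beside 12.1% and 8.52% of 17138 probes. SLA-1 at base 343 was lower by −2.91 (SE 0.55, 7.52-fold, adjusted p 0.000605), at base 297 by −3.0 (SE 0.59, adjusted p 0.000876) and at base 602 by −2.44 (SE 0.56, adjusted p 0.0029), each in 4 of 4 arrays. SLA-3 at base 816 was lower by −2.01 (SE 0.51, adjusted p 0.00712) and SLA-7 by −1.97 (SE 0.40, adjusted p 0.00125), also in 4 of 4. TAP1 was called lower at base 1792 (at least 7.79-fold, 4 of 4) and at base 477 (at least 2.80-fold). Both TAP1 probes entered through the 10-week arrays alone and were thus chosen for being brighter there, so these calls are no test of a change. Smaller changes were called for SLA-1 at bases 1057 (−1.10, adjusted p 0.0453, 3 of 4), 1142 (−1.0, adjusted p 0.0215) and 1202 (−0.93, adjusted p 0.0447), and class I at base 1216 (−0.79, adjusted p 0.0376). Without control replicate 4 of 27 weeks 7 members rather than 11 were called by limma: TAP1 at base 1792 gave −2.42 and stayed called, calls were lost at bases 477 (−1.59), 1057 (−0.68), 1142 (−0.65), 1202 (−0.52) and 1216 (−0.50), and B2M was newly called higher (1.09). Without replicate 4 of 10 weeks the count was also 7, with the calls at bases 1057, 1142, 1202 and 1216 lost. Single omissions among control replicates 1 to 3 of 10 weeks and 1 and 3 of 27 weeks also ended calls at bases 1057, 1202 or 1216. The methods' t-test with adjustment called 2 members here, SLA-2 was called in no period, and B2M gave 0.66 (adjusted p 0.187).

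In HFCD at 19 weeks, 0 members were higher and 5 of 24 lower (limma), beside 1.76% and 5.20% of 17757 probes, each in 4 of 4 arrays. They were SLA-7 at base 649 (−1.67, adjusted p 0.0153), TAP1 at bases 883 and 477 (at least 1.99-fold and 3.57-fold, with 1 of 4 and 2 of 4 arrays of 19 weeks well above background), and SLA-1 at bases 1142 (−1.04, adjusted p 0.0404) and 1202 (−1.09, adjusted p 0.043). The count was 1, 2 and 0 without replicates 1, 3 and 4 of 10 weeks, and 2 and 1 without replicates 1 and 4 of 19 weeks. It was 2 with slide as a random block, 3 with the replicate block and 0 with each array's share of bright spots as a covariate. SLA-7 lost its call only without replicate 4 of 10 weeks (−1.49). At 27 weeks 0 were higher and 6 of 24 lower, beside 1.68% and 3.90% of 18861 probes, each in 3 of 3 arrays: SLA-7 (−2.03, SE 0.44, adjusted p 0.00696), SLA-1 at base 343 (−2.50, SE 0.60, adjusted p 0.0133), TAP1 at base 477 (at least 5.46-fold, with 1 of 3 arrays of 27 weeks well above background), and SLA-1 at bases 297 (−2.23, adjusted p 0.0375), 602 (−2.04, adjusted p 0.043) and 1202 (−1.22, adjusted p 0.0408). Leaving out replicate 3 of 27 weeks gave 0 calls, replicate 2 gave 3, and replicates 1, 3 or 4 of 10 weeks gave 3. In either period 0 members passed the methods' t-test with adjustment, while 10 and 12 passed limma at an unadjusted p under 0.05, beside 27.3% and 20.5% of all probes.

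In HFCSD at 19 weeks, limma called 0 of 23 members, beside 4.78% of 17173 probes higher and 2.38% lower. At an unadjusted p under 0.05, 8 passed limma, beside 24.7% of all probes, and 2 the methods' t-test. Without replicate 2 of 19 weeks, 2 were called, TAP1 at base 477, which was well above background only on the array left out, and SLA-7 at base 649 (−1.75, against −1.23 with all arrays). At 27 weeks 0 were higher and 7 of 23 lower, beside 3.66% and 6.66% of 16460 probes, each in 3 of 3 arrays. TAP1 at base 477, with 0 of 3 arrays well above background at 27 weeks, was at least 3.00-fold lower. SLA-7 was lower by −1.72 (SE 0.44, adjusted p 0.0133) and SLA-3 at base 816 by −1.84 (SE 0.55, adjusted p 0.0332). SLA-1 was lower at bases 343 (−2.04, adjusted p 0.0294), 1057 (−1.41, adjusted p 0.0323), 1142 (−1.08, adjusted p 0.0362) and 1202 (−1.31, adjusted p 0.0195). The count was 3 and 2 without replicates 3 and 4 of 10 weeks and 1 and 2 without replicates 1 and 3 of 27 weeks. Member medians from 10 weeks were −0.46 and −0.16 in control, −0.45 and −0.50 in HFCD, and −0.27 and −0.37 in HFCSD at 19 and 27 weeks, and under 75th-percentile scaling −0.54 and −0.47, −0.25 and −0.34, and −0.26 and 0.11, the last turning sign with 3 members called there. The calls over time of TAP1 at base 477, at base 1792 in control and at base 883 in HFCD came through the 10-week arrays alone.

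Over time, too, the probes of the SLA-1 record gave unequal changes. Control at 27 against 10 weeks gave −2.91, −2.44, −1.10, −1.0, −0.93, 0.33 and −0.16 from base 343 to base 1448. The within-array difference of bases 343 and 1362 moved by −1.99 and −3.24 in control at 19 and 27 weeks, −1.37 and −2.30 in HFCD, and −1.32 and −1.69 in HFCSD, with no overlap between periods. In HFCD at 19 weeks replicate 1 gave −8.15 and the others −4.68, −4.85 and −5.40, and without it the move was −0.57. Exact permutation gave p 0.0286 for both control changes and for HFCD at 19 weeks and 0.0571 for the other 3 (adjusted 0.0643), each the smallest possible and again no test of the pattern. In other records the first probe changed more upward than the last in 21.2% of 560 and 22% of 560 in control at 19 and 27 weeks, 25.2% of 642 and 23.4% of 657 in HFCD, and 23.4% of 585 and 33.8% of 556 in HFCSD, so that lower first probes were not peculiar to SLA-1.

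The diets were compared with control within each sample type and week, which asks what fat and cholesterol do to blood transcripts, and HFCSD with HFCD, which asks what added sucrose does. In each of these 12 comparisons limma called 0 members, and the methods' t-test with adjustment called 0. In WB at 10 weeks, HFCD against control had 0 of 24 members called beside 0.0281% of 17766 probes, and 4 members at an unadjusted p under 0.05 beside 10.0% of probes (methods' t-test 2). HFCSD against control had 0 of 23 beside 0.0123%, with 0 members unadjusted beside 1.73% (methods' t-test 0), and HFCSD against HFCD 0 of 24 beside 0% of probes, with 0 unadjusted beside 4.93% (methods' t-test 0). The 4 members were TAP1 at base 477 (0.81, SE 0.24, adjusted p 0.32), SLA-1 at bases 1202 (0.50, SE 0.21, adjusted p 0.467) and 1362 (0.46, SE 0.20, adjusted p 0.477) and class I at base 1216 (0.49, SE 0.22, adjusted p 0.492), each with 3 of 4 HFCD arrays above all controls. B2M gave 0.36 (adjusted p 0.517), with all 4 HFCD arrays above control.

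In WB at 19 weeks, HFCD against control had 0 of 23 members called by limma beside 0.0181% of probes, and 1 unadjusted beside 12.5% (methods' t-test 2). HFCSD against control had 0 of 23 beside 0.0175%, with 0 unadjusted beside 11.9% (methods' t-test 1), and HFCSD against HFCD 0 of 22 beside 0%, with 0 unadjusted beside 1.57% (methods' t-test 0). The unadjusted member was class I at base 1216, higher in HFCD by 0.80 (SE 0.28, adjusted p 0.292, 4 of 4 arrays above control). Control replicates 2 to 4 of this week were scanned on another day than control replicate 1 and the diets. With scan day as a term, the comparisons with control rest on control replicate 1 alone. That fit is therefore no test of the diets. Against control replicate 1 alone, HFCD gave 2.44 rather than 0.85 at TAP1 base 477 (not well above background on that array), 2.82 rather than 1.06 at TAP1 base 1792, 0.94 rather than 0.80 at class I base 1216 and −0.48 rather than −0.70 for B2M. HFCSD gave 2.12 rather than 0.53, 2.32 rather than 0.57, 0.71 rather than 0.58 and −0.21 rather than −0.43 at the same probes, and SLA-1 at base 343 gave 1.06 in both diets rather than 0.20 and 0.21. In each diet 10 of 27 probes turned sign. This count includes SLA-6 and class I at base 330, which were well above background on no WB array. In HFCD it also includes SLA-7 at base 1146, well above background on 6 of 44 usable arrays. The signs of these dim probes cannot be read. Brighter probes that turned in HFCD included SLA-2 at base 1525 (1.12 rather than −0.29) and SLA-1 at base 1334 (0.20 rather than −0.31). SLA-3 turned at bases 1670 (1.12 rather than −0.53), 1761 (0.97 rather than −0.27) and 1771 (0.86 rather than −0.36). Those in HFCSD included the same SLA-2, SLA-3 and SLA-1 probes and SLA-1 at base 297 (1.16 rather than −0.09).

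In WB at 27 weeks, HFCD against control had 0 of 23 members called by limma beside 0.0165% of probes, with 0 unadjusted beside 5.55% (methods' t-test 0). HFCSD against control had 0 of 22 beside 10.6%, with 0 unadjusted beside 32.2% (methods' t-test 0), although 1822 of 17133 probes were called. HFCSD against HFCD had 0 of 23 beside 0.0111%, with 1 unadjusted beside 12.5% (methods' t-test 2), namely TAP1 at base 883 (limma adjusted p 0.393), without overlap and at least 1.20-fold lower. With 0 of 3 HFCSD arrays well above background, it entered through its HFCD arrays alone and was thus chosen for being brighter there. The change of TAP1 at base 1792 in HFCD against control (limma adjusted p 0.926) included control replicate 4, at 1.62. That array was not well above background at this probe, so the size of the change cannot be read. Without that array, 1 member was called in HFCSD against control, SLA-1 at base 1362 (−0.77, adjusted p 0.0411, against −0.44 with all arrays).

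In WBC, HFCD against control had 0 of 24 members called by limma beside 0.0276% of probes, with 0 unadjusted beside 4.73% (methods' t-test 0). HFCSD against control had 0 of 25 beside 0.0366%, with 0 unadjusted beside 11.3% (methods' t-test 1), and HFCSD against HFCD 0 of 25 beside 0%, with 0 unadjusted beside 2.17% (methods' t-test 0). Member medians in WBC were 0.02, −0.04 and −0.11, with single changes between −0.66 and 0.42. B2M gave 0.11 and 0.38 in HFCD and HFCSD against control (SE 0.45), and SLA-2 at base 1525 gave 0.01 and −0.02 (SE 0.42). In the 4 tests of whether a diet's change differed, between WBC and WB at 27 weeks or between 27 and 10 weeks in WB, limma called 0 of 24, 24, 25 and 23 members, beside 0%, 0%, 1.39% and 0% of all probes (in the order HFCD between sample types and over time, then HFCSD likewise). Unadjusted counts were 0, 0, 1 and 0, and the lowest adjusted p-values 1, 0.955, 0.247 and 0.395.

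**Figure D3:**
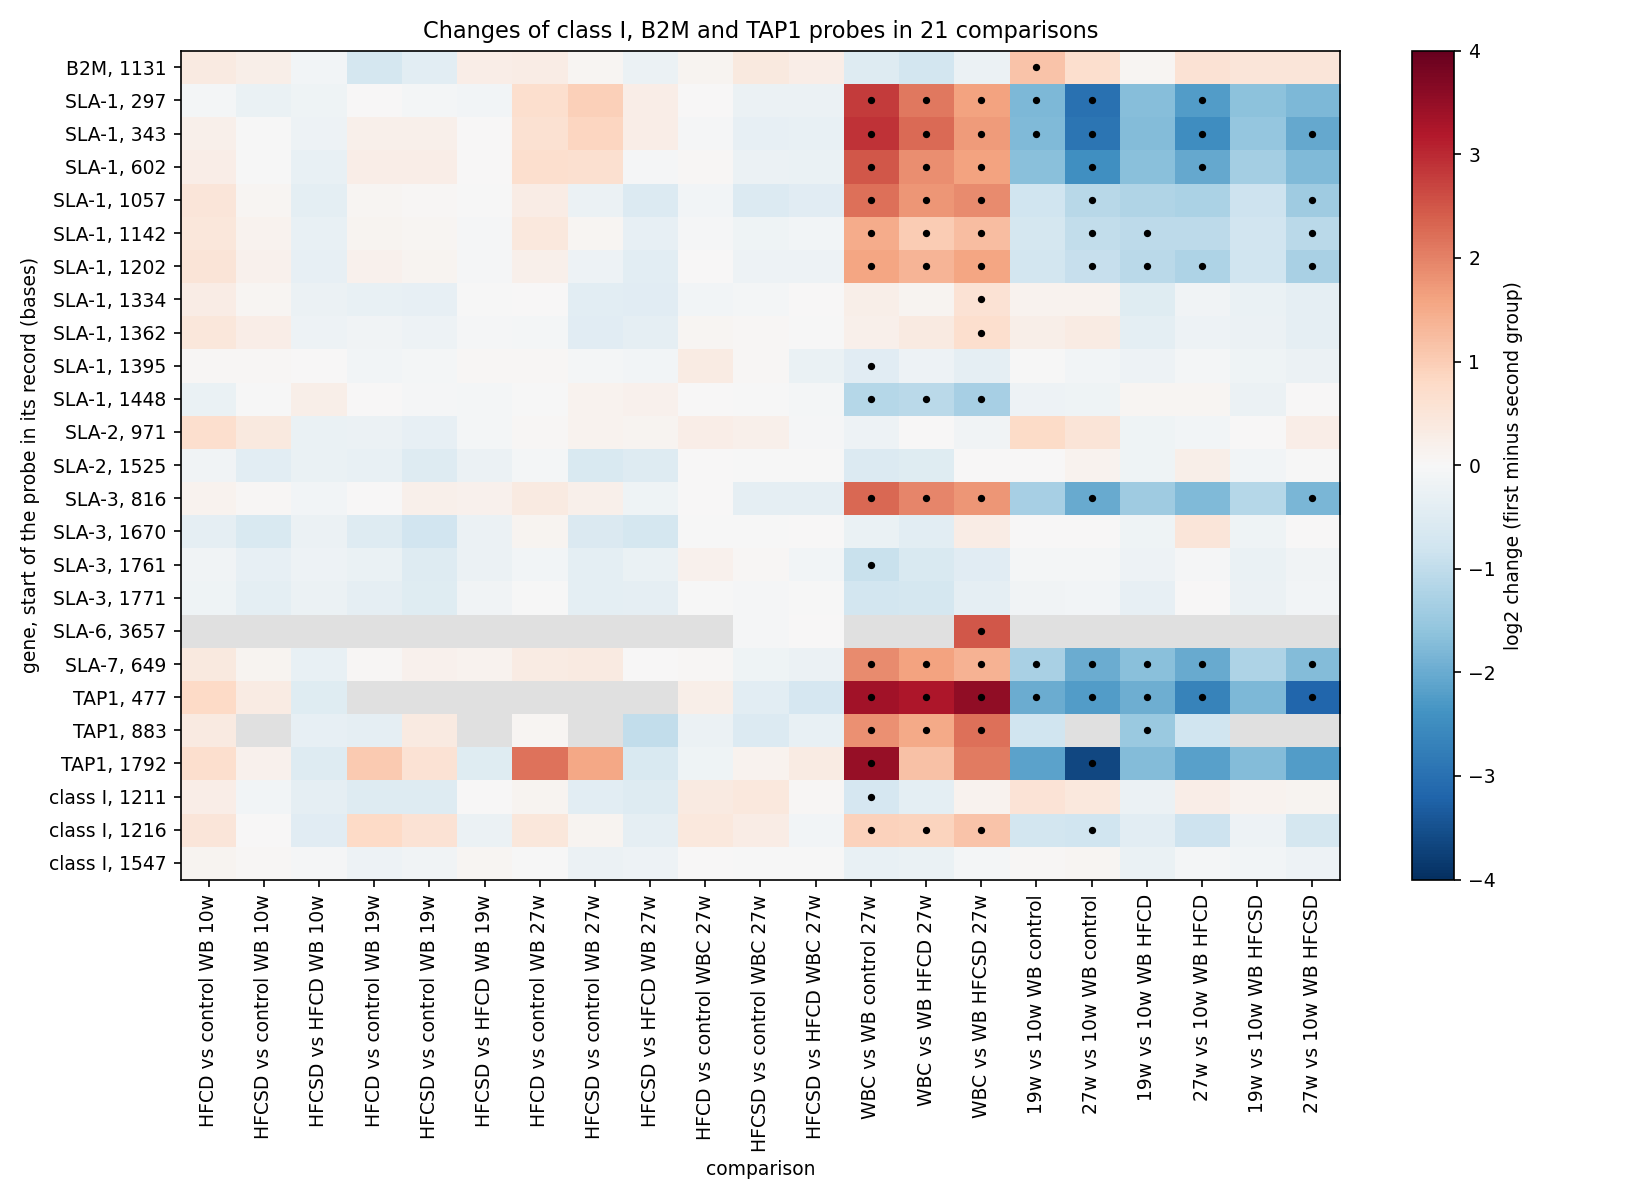
Log2 change (colour) of the 25 member probes that could be tested (vertical axis, gene and starting base) in the 21 comparisons (horizontal axis), with a black dot where the adjusted p of limma was under 0.05 and grey where a probe was not tested. Dots lie in the comparisons of WBC with WB and of feeding periods and in none of the 12 diet comparisons, and the changes of SLA-1 at bases 1334 and 1362 in WBC against WB of HFCSD turned negative under 75th-percentile scaling.

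Genes that work with class I were followed as lists. All 6 genes of the immunoproteasome and its activator had a probe, as did 4 of 8 for peptide loading and trimming, 12 of 19 regulators of class I, 4 of 12 class I-like genes, 3 of 7 receptors, 5 of 10 MHC class II genes and 15 of 23 interferon-induced genes. In WBC against WB, 24.5%, 25.7% and 37.3% of all probes were called higher in control, HFCD and HFCSD. Of 6 immunoproteasome genes, 4, 4 and 3 were called higher. PSME2 gave 0.84, 1.00 and 0.81, PSME3 0.73, 1.04 and 0.73, and PSME1 0.52, 0.60 and 0.54. PSMB8 gave 0.58 and 0.66 in control and HFCD. Of 12 regulators, 5, 5 and 3 were higher, IFNAR2 by 1.75, 1.37 and 1.53 and RELA at least 1.83-fold and 2.26-fold in control and HFCD, having entered through its WBC arrays alone. IRF9 (1.34 and 1.05) and JAK2 (0.98 and 1.23) were called in control and HFCD, NFKB1 (0.79) in control, CREB1 in HFCD and HFCSD (0.84 and 1.18) and IRF1 in HFCSD (0.68). The loading chaperone CALR was lower by −0.59, −0.56 and −0.85, PDIA3 higher by 0.59 and 1.20 in HFCD and HFCSD, and HFE lower by −1.37 and −2.21 in the same diets. Receptors called higher were KLRK1 (1.37, 1.57 and 2.10), CD8A in control and HFCSD (0.70 and 1.32) and CD8B in control (1.07). Of 14 interferon-induced genes, 0, 1 and 2 were called (DDX58 1.26 and 1.23, USP18 1.12), and limma called 0 of 5 class II genes in each diet (unadjusted 1, 0 and 1, beside 52.4%, 54.8% and 63.6% of all probes).

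Over time in control WB, the called SLA-1 and SLA-7 probes were lower, and so were the called immunoproteasome genes. Whether these genes moved with the members was not tested. At 19 weeks, beside 7.46% of all probes, 3 of 6 were called lower (PSMB8 −0.89, PSME1 −0.82, PSME3 −0.99) and at 27 weeks, beside 8.52%, 6 of 6 (PSMB8 −1.13, PSMB10 −0.78, PSMB9 −0.60, PSME1 −0.84, PSME2 −0.69, PSME3 −0.59). HFCD had 2 at 27 weeks beside 3.90% (PSME1 −0.68, PSME3 −0.71) and limma called 0 in the other 3 comparisons over time. IFNAR2 was lower in control by −1.34 and −1.33 at 19 and 27 weeks, in HFCD by −1.16 and −1.27, and in HFCSD at 27 weeks by −1.51. The regulators called lower numbered 4 and 3 in control, with 3 called higher at 27 weeks beside 12.1% of all probes (CREB1 through the 27-week arrays alone), 4 and 1 in HFCD beside 5.20% and 3.90% lower, and 2 and 1 in HFCSD beside 2.38% and 6.66%. HSPA5 was higher by 1.05 and 1.39 in control, 0.95 in HFCD at 19 weeks, and 1.15 and 1.02 in HFCSD. KLRK1 was higher in control at 27 weeks (2.15), in HFCD (1.74 and 1.82) and in HFCSD at 19 weeks (2.29), while CD8B (−1.26 and −1.30) and CD74 (−1.24 at 27 weeks) were lower in control. Between diets, limma called 0 genes of the lists other than the interferon-induced one, and the highest unadjusted counts were as follows, all of them higher in the first-named diet. Immunoproteasome genes had 4 of 6 in HFCD (12.5% of all probes) and HFCSD (11.9%) against control in WB at 19 weeks and in HFCD against control in WBC (4.73%). Regulators had 6 of 12 in HFCD against control in WB at 10 weeks (10.0%), loading genes 3 of 3 in HFCSD against control in WBC (11.3%), and receptors 2 of 3 in HFCD against control in WB at 19 weeks (12.5%). Class II genes had 2 of 5 in HFCD against control in WB at 27 weeks (5.55%) and in WBC (4.73%), and class I-like genes 1 of 3 in HFCSD against control in WB at 27 weeks (32.2%) and 1 of 4 in HFCD against control in WBC (4.73%). Interferon-induced genes had medians of 1.37, 1.33, 1.23 and 1.35 in HFCD against control and 0.48, 0.83, 0.48 and 0.84 in HFCSD against control (WB at 10, 19 and 27 weeks, then WBC), where the members' medians were 0.29, −0.12, 0.12 and 0.02, and 0.05, −0.09, −0.00 and −0.04, and at the 75th percentile 0.06, 0.08, 0.17 and 0.08, and −0.06, 0.02, 0.40 and −0.09. Limma called 2 of 14 interferon-induced genes, ISG20 (1.58) and LGALS9 (2.03), in HFCSD against control in WB at 27 weeks, beside 10.6% of all probes, and 0 in the other diet comparisons. Unadjusted, 12, 9, 10 and 11 of 14 passed in HFCD against control, all higher, beside 10.0%, 12.5%, 5.55% and 4.73%, and 2 of 13 and 6, 5 and 6 of 14 in HFCSD against control, all higher, beside 1.73%, 11.9%, 32.2% and 11.3%.

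Cell markers give the setting of these changes, and their part in the members' changes was not tested. T-cell genes (7 of 11 with a probe, CD3D most abundant) averaged 8.87, 9.09 and 8.88 in WB at 10 weeks in control, HFCD and HFCSD, 8.04, 8.71 and 8.53 at 19 weeks, 8.04, 8.41 and 8.39 at 27 weeks, and 9.08, 9.31 and 9.35 in WBC. In WBC against WB 6, 3 and 5 of 7 were called higher, beside 24.5%, 25.7% and 37.3% of all probes, CD4 each time through its WBC arrays alone. Over time 3 of 6 were lower in control at 19 weeks (CD2 −1.41, CD3E −1.44 and CD8B, beside 7.46%) and at 27 weeks (CD2 −1.69, CD3E −2.12 and CD8B, beside 8.52%) and 1 of 7 in HFCD at 27 weeks (CD2 −1.39, beside 3.90%). CD3D (0.18 and 0.22) and CD8A (0.04 and 0.63) did not share the lower values in control, and at 27 weeks CD3D gave −0.12 and −0.26 and CD8A 0.53 and 0.46 in HFCD and HFCSD, none called. NK-cell genes (2 of 7, KLRK1 most abundant) averaged 6.58, 6.98 and 6.58, then 6.94, 7.32 and 7.13, then 7.26, 7.17 and 7.08 in WB, and 9.08, 9.26 and 8.88 in WBC, with both called higher in WBC. PRF1 entered those tests through its WBC arrays alone and was at least 4.15-fold, 5.31-fold and 2.69-fold higher. Over time in HFCD and HFCSD PRF1 entered through the 10-week arrays alone and was not called. At 19 and 27 weeks it was at least 1.81-fold and 2.37-fold lower in HFCD and 1.16-fold and 1.29-fold lower in HFCSD. KLRK1 was higher there, by 1.74 and 1.82 in HFCD and by 2.29 and 1.44 in HFCSD, the last not called. The NK-cell averages thus join opposite changes. CD8A and CD8B also stand in the receptor list, as does KLRK1. Monocyte genes (4 of 7, FCGR3A most abundant) averaged 10.86 to 11.03 over the diets in WB at 10 weeks, 10.93 to 11.41 at 19 weeks, 11.29 to 11.69 at 27 weeks and 11.94 to 12.30 in WBC. Of these, FCGR3A alone was called. It was higher in WBC in HFCD (0.60, beside 25.7% of all probes) and HFCSD (0.81, beside 37.3%). It was also higher in control WB at 27 weeks (0.68, beside 12.1%). In these comparisons CD14 gave −0.01, −0.18 and 0.04, CD163 0.75, 0.87 and 0.96, and LYZ 0.89, 1.09 and 0.73. Neutrophil genes (2 of 9, MMP9 most abundant) averaged 11.72 to 12.25, 12.09 to 12.20, 11.85 to 12.38 and 12 to 12.77 in the same order, with none called by limma in these 9 comparisons (unadjusted 0).

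Platelet genes (4 of 8, PF4 most abundant) averaged 11.23 to 12.17 over the diets in WB at 10 weeks, 10.44 to 11.92 at 19 weeks, 11.30 to 12.33 at 27 weeks and 11.28 to 12.31 in WBC, were not called in these comparisons, and lay below 10 on WBC control replicate 1 (8.48), WBC HFCD replicate 2 (7.49), WB HFCD replicates 1 and 4 of 19 weeks (8.94 and 8.83) and WB HFCSD replicate 3 of 27 weeks (9.65). WBC HFCD replicate 2 was also the low array for TAP1 at base 1792 (5.56). The only erythroid gene with a probe of 10, HBA1, was well above background on 1 array, WB HFCSD replicate 3 of 19 weeks (5.08), with group means of 1.45 to 2.77. Of the liver genes (6 of 8, TF most abundant), ALB, APOB and TTR were well above background on 0 arrays and the group means were 2.75 to 3.25, with TF not called. Between diets limma called 0 genes of the marker lists, and the highest unadjusted counts were 4 of 4 platelet genes and 3 of 6 T-cell genes. The platelet genes were lower in HFCD than in control in WB at 10 weeks (ITGA2B −0.64, ITGB3 −0.85, PF4 −0.84 and PPBP −1.43), where 10.0% of all probes passed unadjusted, and higher in HFCSD than in HFCD (0.68, 0.79, 0.65 and 1.07), where 4.93% did. The T-cell genes were higher in HFCD (12.5% of all probes) and HFCSD (11.9%) than in control in WB at 19 weeks.

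The 5 named genes most like a member over the 12 group means were found among 891 genes with a probe well above background on all arrays, as a description without a test. For TAP1 at base 1792 they were CS (r 0.96), LCTHIO (0.95), EEF1G (0.95), IDH3B (0.95) and PARK7 (0.94), and the deviations from group means over 45 arrays gave 0.69, 0.52, 0.82, 0.83 and 0.60. For the brightest SLA probe, SLA-1 at base 1334, they were TRXR1 (0.93), HTT (0.93), FCGRT (0.90), RI (0.90) and FOLR1 (0.88), with 0.57, 0.41, 0.71, 0.86 and 0.67 within groups. FCGRT encodes a class I-like heavy chain that also pairs with B2M. For B2M they were CASP8 (0.81), ST8SIA4 (0.79), RPL6 (0.79), SGMS1 (0.79) and FAU (0.78), but within groups −0.36, −0.09, −0.41, 0.18 and 0.01, so the likeness of B2M did not extend to single arrays. In the pig reference annotation PSMB8 lies between TAP2 and TAP1 and PSMB9 follows TAP1. PSMB8 and PSMB9 were both called lower in control WB at 27 weeks. In WBC against WB of control PSMB8 was called and PSMB9 was not. The TAP1 calls in both of these comparisons came through the brighter group alone. SLA-8, SLA-7 and SLA-6 follow each other, and SLA-1 lies beside SLA-5.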

How the data were processed

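Gene expression was measured on 45 Agilent 1-colour porcine arrays, 1 per sample. The authors deposited 1 Feature Extraction file per array, with the processed signal of each spot as an intensity on a linear scale, background-subtracted and detrended within the array but not normalized between arrays, and marks for spots well above background, outlying or saturated. Other columns of the deposited files are spot marks without a unit, each 0 or 1. Feature Extraction was version 10.5.1.1 per the file headers. The authors also deposited a series table of intensity values, which they normalized by quantiles in GeneSpring GX. Its columns have medians of 0.0998 to 0.101 and its log2 values correlate with the processed signals of the same array at Pearson r 0.993 to 1.000, and the constant that sets its scale is not known.

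Each array holds 45220 spots, 1417 of them controls and 43803 of probes, for 43603 probes of 60 bases, 50 of them with several spots. Control spots and outlier spots (1 to 31 per array) were left out, and 0 spots were marked as saturated. The log2 processed signals were quantile normalized over all 45 arrays and spots of a probe averaged. Probes were tested where all usable arrays of 1 group or the other showed them well above background and each group had at least 2 usable arrays, so a probe that passed through 1 group alone was chosen for being brighter there. The arrays were scanned on 5 days: all WB of 10 weeks, control replicates 2 to 4 of 19 weeks, the rest of 19 weeks, WB of 27 weeks, and WBC.

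Comparisons used limma 3.58.1 in R 4.3.3 (two-sided moderated test, Benjamini-Hochberg adjustment over all probes tested in the comparison, called at an adjusted p under 0.05). The groups of the labels gave 21 comparisons: 12 of diets within a sample type and week, fitted on its 3 diet groups, 3 of WBC with WB, fitted on the 6 groups of 27 weeks, and 6 of weeks within WB, fitted on its 9 groups. A further 4 contrasts tested differences of differences. Diets compared with the same control share its arrays. The methods' t-test was run on the same values. The difference along the SLA-1 record, chosen on the same arrays, was given a two-sided exact permutation p. Tables were handled in Python 3.11.15 with numpy 2.4.6, pandas 2.3.3 and scipy 1.17.1, and figures drawn in matplotlib 3.10.9. The procedure was tested on simulated data. For folds called "at least", each array of the dim group on which the probe was not well above background was set to the lowest value that array had well above background, or to its own value if higher. Zeros that end a value are in places not written.

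Members were found by symbol or full name in the annotation of the array files, and 2002 of 2103 RefSeq accessions of probes were matched to a symbol. Members and lists were chosen with earlier results of these data known. Values are given for each called probe, for the brightest probe of each gene, for the 5 genes with the highest Pearson r over 12 group means, and for called genes of the lists. Lists covered peptide loading and trimming, immunoproteasome and activator, class I regulators, class I-like chains, class I receptors, MHC class II, interferon-induced genes, and markers of T, NK and erythroid cells, monocytes, neutrophils, platelets and liver.

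Alternatives set down at the start, with those earlier results known, were scaling to the 75th percentile, normexp background correction with an offset of 50, the authors' table, quantiles taken over a fit's own arrays, other presence filters, other sets of arrays in a fit, the replicate number as a block, slide as a random block, scan day as a term, each array's share of bright spots (those well above background) as a covariate, the methods' t-test, an adjusted p under 0.10, and leaving out each array. The same alternatives on the difference along the SLA-1 record were added after seeing the data. The paper sampled the same pigs repeatedly, but the labels do not say that a replicate number is the same pig over time. The main fits of weeks and of WBC with WB had no pairing and treated their arrays as independent. The deviations from group means of arrays with the same number correlated above 0.1 in every pair only for HFCSD at 27 and 10 weeks (3 pairs, r 0.19 to 0.50, 12094 probes), where the block left the count of called members at 7.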

Additional observations from a re-analysis of the deposited data

Results flagged for a closer look

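In each group of 4 arrays, the array farthest from the others was looked for in the brightest probe of each member gene, by the gap to its nearest neighbour over the range of the group (set against Dixon's critical value for 4 samples). Of 53 groups tested, 3 held such an array, where chance gives about 1 in 20. SLA-2 at base 1525 read 12.59 in WB HFCD replicate 1 of 10 weeks, with the other arrays at 13.60 to 13.80 (gap over range 0.833). The same probe read 11.86 in WBC HFCD replicate 2, with the others at 13.56 to 13.74 (0.903). SLA-3 at base 816 read 12.20 in WB control replicate 1 of 19 weeks, with the others at 13.17 to 13.25 (0.923), and this array was scanned on another day than the other controls of that week. The cause of these values was not tested.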

How the results depend on the processing

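The authors' table, quantiles taken over a fit's own arrays and the filter on every array of the fit left all counts of called members within 1.5 times the value given in the report. Of 318 counts under other settings 278 did so and 40 did not, and of 986 changes of called probes 853 kept direction and call, 130 kept the direction only and 3 reversed. The causes were not tested.

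With 19 against 10 weeks written first and 27 against 10 weeks second, the counts given in the report are 5 and 11 in control, 5 and 6 in HFCD, and 0 and 7 in HFCSD. The methods' t-test without adjustment gave 13 in control at 19 weeks, 13 and 12 in HFCD, and 2 and 14 in HFCSD. It also gave 2 for HFCD against control in WB at 10 weeks and 2 at 19 weeks, 1 for HFCSD against control in WB at 19 weeks and 1 in WBC, and 2 for HFCSD against HFCD in WB at 27 weeks, each 0 with adjustment. With adjustment it gave 2 in control at 27 weeks and 0 and 0 in HFCD. Each array's share of bright spots as a covariate gave 12 in control and 0 in HFCD at 19 weeks, 3 in HFCSD at 27 weeks, and 4 in WBC against WB of HFCSD. Without a filter, where more dim probes are tested, the counts were 0 in control at 19 weeks, 2 and 3 in HFCD, and 4 in HFCSD at 27 weeks. The weaker flag for presence gave 2 and 3 in HFCD. Fitting only the groups compared gave 10 and 7 in control and 1 in HFCD at 19 weeks, and fitting all 45 arrays gave 9 in HFCD and 2 in HFCSD at 19 weeks. Slide as a random block gave 3 and 7 in control and 2 and 3 in HFCD, and the replicate block gave 3 in HFCD at 19 weeks. An adjusted p under 0.10 gave 8 in control at 19 weeks, 9 and 10 in HFCD, and 2 in HFCSD at 19 weeks. Scaling to the 75th percentile gave 3 in HFCD at 19 weeks and 3 in HFCSD at 27 weeks, and normexp gave 8 in HFCD at 19 weeks.

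In WBC against WB of HFCSD, SLA-1 at bases 1334 and 1362 went from 0.59 and 0.68 to −1.25 and −1.17 at the 75th percentile, and base 1362 to −0.06 with the covariate. The difference along the SLA-1 record kept its sign in 13 of 13 settings in each comparison. It moved at the 75th percentile to 3.85, 3.23 and 3.15 in WBC against WB of control, HFCD and HFCSD, and to −2.67 and −2.30 at 27 weeks in control and HFCSD.

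Leaving out each array gave 0 to 3 called members in control at 19 weeks and 7 to 11 at 27 weeks, 0 to 7 and 0 to 8 in HFCD, 0 to 2 and 1 to 7 in HFCSD, 13 to 16, 10 to 12 and 10 to 15 in WBC against WB, 0 to 1 in HFCSD against control in WB at 27 weeks, and 0 to 0 in the other 11 diet comparisons. TAP1 at bases 477 and 883 and SLA-6 were near the background in part of the groups, which limits how far their folds can be read.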
